A study of Mus musculus with 24 samples.

Results

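Transcripts of the Notch pathway were followed in dendritic cells sorted from mouse spleen, through 10 genes: the receptors Notch1, Notch2, Notch3 and Notch4, the DNA-binding factor Rbpj, the target genes Hes1, Hey1, Nrarp and Dtx1, and Esam. The genes were taken by symbol from a count table of 39017 genes, and all 10 were found there and had enough reads to be among the 18093 genes tested. The data were 24 libraries from F1 mice of a C57BL/6 x FVB/N cross, either Flt3 +/+ (WT) or Flt3 ITD/+ (ITD, 1 allele with an internal tandem duplication of the Flt3 receptor kinase gene). The labels name 5 sorted subsets. They are PDC, the plasmacytoid cells; C_CD8 and NC_CD8, the canonical and the non-canonical CD8+ cells; and Esamhi and Esamlo, the CD11b+ cells with high and with low Esam. There were 2 libraries per genotype for PDC (experiment batches A and B), 3 for each CD8+ subset (batches B, C and D) and 2 for each CD11b+ subset (batches C and D). Replicates came from independent experiments, per the series' design text. The labels give no age, sex or number of mice per library, nor the sort gates beyond the subset names. Each WT library had an ITD partner of the same subset and batch, which gave 12 pairs.

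Notch receptors are membrane proteins that are cut when a ligand of the Delta or Jagged family on a neighbouring cell binds them. The released intracellular part enters the nucleus, joins the DNA-binding protein Rbpj and turns on genes such as Hes1, Hey1, Nrarp and Dtx1. In mouse spleen, Notch2 and Rbpj are known to be needed for the Esam-high CD11b+ dendritic cells. Esam is an adhesion protein of endothelial cells and platelets that also marks this subset, and here it named the sort of both CD11b+ groups, so its level there describes the sort.

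Library totals ran from 11197145 to 22248404 reads, and levels are given in CPM, the reads of a gene divided by the total of its library on the usual scale. Marker lists were read first. The summed level of 7 plasmacytoid genes (led by Siglech) was 12441 to 12520 CPM in WT PDC and 105 to 1171 CPM in the libraries of the 4 other WT subsets. Among those 4, NC_CD8 had the highest plasmacytoid sums, from 928 CPM. The 8 genes of the CD8+ conventional lineage summed to 4152 to 7013 CPM in WT C_CD8 and 931 to 1788 CPM in WT NC_CD8. Their sums were as high in WT PDC (4340 to 7162 CPM), where Irf8 led them. WT Esamlo (657 to 1389 CPM) overlapped NC_CD8, and WT Esamhi had 358 to 401 CPM. The 5 CD11b+ lineage genes summed to 46.6 to 78.5 CPM in WT C_CD8, 1153 to 1614 CPM in WT NC_CD8 and 1802 to 2309 CPM in both WT CD11b+ subsets. In WT PDC they summed to 1258 to 1408 CPM, within the NC_CD8 range. In sorted cells as in any bulk sample, fewer cells of a type and less RNA per cell cannot be told apart.

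**Figure D1:**
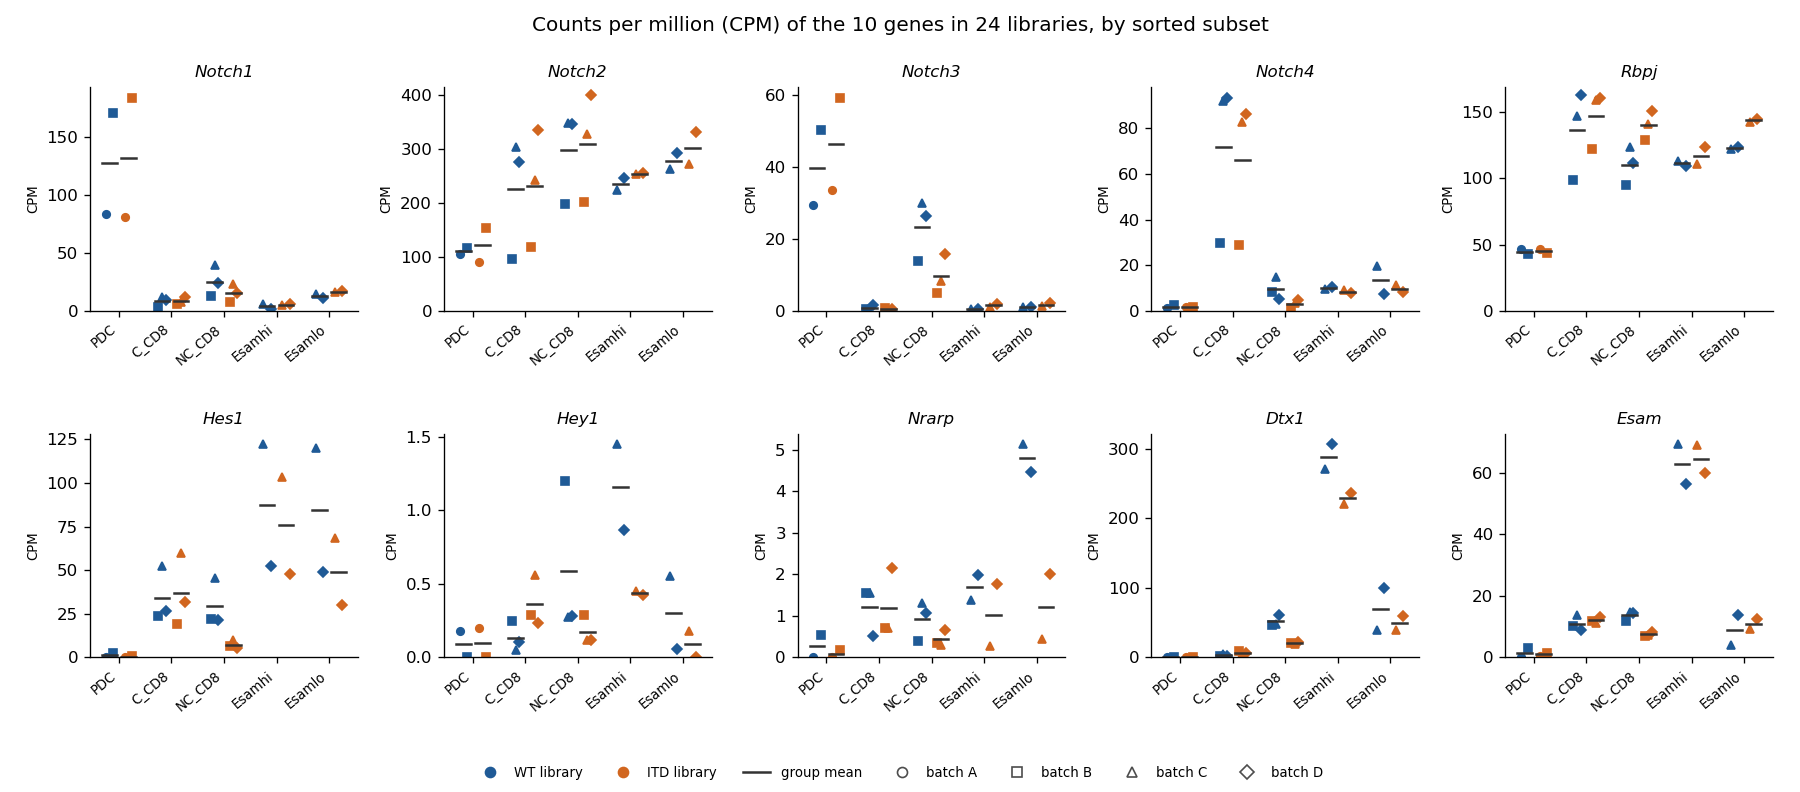
Level of each of the 10 genes in each library, in CPM on linear axes that start at 0 and differ between panels; colour gives the genotype, marker shape the experiment batch and the bar the group mean. Notch1 was highest in PDC (80.8 to 184 CPM), Notch4 in C_CD8 (28.7 to 93.5 CPM), and Dtx1 (221 to 306 CPM) and Esam (56.4 to 69.2 CPM) in Esamhi.

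In the WT cells the 5 subsets differed in their receptor makeup. Notch2 was found in all of them, Notch1 was high in PDC, Notch3 was high in PDC and NC_CD8, and Notch4 was high in C_CD8. Any difference among the 5 WT subsets was called for 8 of the 10 genes (edgeR quasi-likelihood test, adjusted p below 0.05), where 46.7% of all tested genes were called. The exceptions were Notch2 (adjusted p = 0.088) and Hey1 (adjusted p = 0.103). With batch as a block 9 were called (64.1% of all genes), all but Notch2 (0.0762). Without a block, the call of Nrarp (0.038) was lost in 7 of 12 fits that left out 1 library (0.0508 to 0.114; those of PDC batch A, NC_CD8 batches B and D, Esamhi and Esamlo batches C and D), and Notch2 was called without the C_CD8 library of batch B (0.0257). Over the 10 pairs of WT subsets, 47 of 100 tests were called. PDC differed from C_CD8 in 8 of the 10 genes (37.8% of all genes), from NC_CD8 in 7 (26.4%), from Esamhi in 7 (30.6%) and from Esamlo in 9 (30.2%). Between the other subsets, C_CD8 and NC_CD8 differed in 5 (25% of all genes), C_CD8 and Esamhi in 3 (23.5%), C_CD8 and Esamlo in 2 (16%), NC_CD8 and Esamhi in 4 (6.34%), NC_CD8 and Esamlo in 1 (4.08%), and Esamhi and Esamlo in 1 (0.658%). Pairs with PDC share the same 2 PDC libraries. PDC and the CD11b+ subsets have no batch in common, so subset and batch are separated there only through the CD8+ libraries of batch B.

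Levels of different receptors were compared per kilobase of annotated exon, as shares of the 4 receptors' sum. The sum itself had means from 23.4 CPM per kilobase in WT Esamhi (SD 1.34, n = 2) to 33.4 in WT NC_CD8 (SD 10.1, n = 3). Libraries of 1 subset could differ widely, with 30.5 ± 15.2 in WT C_CD8 (SD, n = 3) and 24.4 ± 7.01 in WT PDC (n = 2). By mean, Notch2 held the largest share in every WT subset: 43.4% ± 9.44 in PDC (SD, n = 2), 68.6% ± 1.27 in C_CD8 (n = 3), 82.8% ± 2.95 in NC_CD8 (n = 3), 93.2% ± 1.01 in Esamhi (n = 2) and 90.4% ± 4.66 in Esamlo (n = 2). In the batch B library of WT PDC, however, Notch1 (41.1%) exceeded Notch2 (36.7%). The next receptor differed by subset: Notch1 in PDC (35.8% ± 7.54, with Notch3 at 19.9% ± 1.73), Notch4 in C_CD8 (29.1% ± 1.21) and Notch3 in NC_CD8 (8.48% ± 0.682). With the length of a single principal transcript in place of all exons, a choice made after seeing the data, the Notch2 shares were 37.5%, 64.5%, 80.5%, 91.7% and 88.2% in the same order. The order within PDC then turned, with Notch1 at 44.8% ± 8.13 above Notch2.

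**Figure D2:**
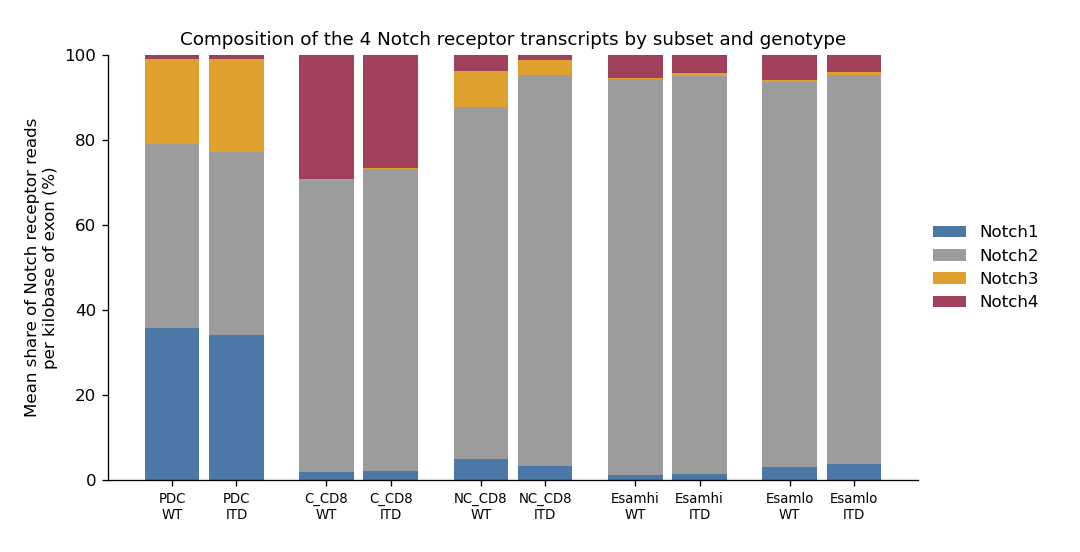
Mean share (%) of each Notch receptor in the summed receptor level per kilobase of exon, stacked to 100% for the 10 groups. Notch2 is the largest share in each group, from 43.2% in PDC ITD to 93.7% in Esamhi ITD, but in PDC it falls behind Notch1 with principal transcript lengths (37.5% against 44.8% in WT); Notch4 is second in C_CD8.

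Notch1 (chr2:26457903-26516663, minus strand; positions of genes are on build mm10), the receptor best known for committing lymphoid progenitors to the T cell fate, stood at 84.1 and 172 CPM in the WT PDC libraries of batches A and B. In WT NC_CD8 it was 12.4, 39.5 and 23.9 CPM, in C_CD8 3.59, 11.8 and 9.58, in Esamhi 6.19 and 1.92, and in Esamlo 14.8 and 11.1 CPM. No library of another subset reached the lower PDC value. The log2 difference was 3.83 ± 0.56 (SE) against C_CD8 (adjusted p = 3.25e-05), 4.89 ± 0.71 against Esamhi (3.19e-05), 3.22 ± 0.64 against Esamlo (0.000899) and 2.36 ± 0.54 against NC_CD8 (0.00289; edgeR). Without the WT PDC library of batch B the last was 1.83 (adjusted p = 0.0508). Within batch B, PDC at 172 CPM stood beside 12.4 in NC_CD8 and 3.59 in C_CD8. NC_CD8 was next in the order, 1.46 ± 0.50 above C_CD8 on the log2 scale (adjusted p = 0.0407), a call that was lost in 4 of 6 fits that left out 1 library (0.0702 to 0.183; those of C_CD8 batches B and D and NC_CD8 batches C and D) and stood at 0.000247 with batch as a block. Esamhi and Esamlo did not differ in the fit without a block (-1.67 ± 0.64, adjusted p = 0.356), but Esamhi was lower with the batch block (-1.69, adjusted p = 0.00889). NC_CD8 was above Esamhi by 2.53 ± 0.62 (adjusted p = 0.0181), which was lost without the NC_CD8 library of batch C (0.0608) or the Esamhi library of batch D (0.264).

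Notch3 (chr17:32120820-32166852, minus strand), best known as the receptor of vascular smooth muscle, followed a different split. Its levels were 29.4 and 50.2 CPM in WT PDC and 13.7, 29.96 and 26.2 CPM in WT NC_CD8. In the other subsets every WT library was at or below 1.62 CPM, with 1 to 32 reads per library. The Notch3 level in NC_CD8 was thus well apart from that in C_CD8 (log2 difference 4.88 ± 0.65, ratio 29.4, adjusted p = 2.52e-05), in Esamhi (5.48 ± 0.83, 0.000439) and in Esamlo (4.33 ± 0.75, 0.00221). The last value was 4.26 (adjusted p = 0.058) without the WT Esamlo library of batch D. PDC and NC_CD8 did not differ without a block (0.79 ± 0.58, adjusted p = 0.346), whereas PDC was higher with the batch block (1.60, adjusted p = 0.02). In the batch B libraries the values were 50.2 CPM in PDC and 13.7 in NC_CD8.

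A list of 12 mural and fibroblast genes was read beside Notch3. It summed to 6.92 CPM in batch A and 157 CPM in batch B of WT PDC (ITD: 4.97 and 81.5), with Dcn the highest and Rgs5 and Cspg4 without a read. The Notch3 level in batch A, where the list was lowest, was 29.4 CPM in WT and 33.6 in ITD. In WT NC_CD8 the list summed to 8.12 to 10.4 CPM, led by Pdgfrb (mean 4.82 CPM) and Acta2 (2.05). There 5 of its 12 genes (Rgs5, Cspg4, Col3a1, Dcn and Lum) had no read. What part mural or fibroblast RNA had in the Notch3 levels was not tested.

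Notch4 (chr17:34564268-34588503, plus strand), a receptor known mainly from endothelium, was highest in C_CD8, at 29.9, 92.0 and 93.5 CPM in WT. WT NC_CD8 had 8.12, 14.8 and 5.17 CPM, Esamhi 9.66 and 10.4, Esamlo 19.5 and 7.42, and PDC 1.17 and 2.33 CPM. C_CD8 did not overlap any other subset. It was higher than NC_CD8 by 3.06 ± 0.52 on the log2 scale (ratio 8.36, adjusted p = 0.000259), than Esamhi by 2.87 ± 0.60 (0.0022), than Esamlo by 2.46 ± 0.59 (0.00778) and than PDC by 5.47 (SE 0.71, 8e-06). The Esamlo difference was 1.96 (adjusted p = 0.145) without the WT Esamlo library of batch D. At the other end, PDC was lower than NC_CD8, Esamhi and Esamlo (adjusted p from 0.00236 to 0.00859). Without the WT PDC library of batch A the first pair gave adjusted p = 0.0964 and the second 0.0719, and with the batch block the second was no longer called (-1.31, adjusted p = 0.109).

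Endothelial RNA was measured beside Notch4 and Esam with a list of 14 genes. The list summed to 79.3 to 137 CPM in WT C_CD8, 225 to 357 in PDC, 138 to 169 in NC_CD8, 122 to 132 in Esamhi and 130 to 142 CPM in Esamlo, with Pecam1 highest in each. Cdh5, a marker of endothelial cells, was at 0.141 to 1.47 CPM in WT C_CD8 and at 53.4 and 84.8 CPM in WT PDC. Pecam1 (mean 148 CPM), Cdh5 (69.1) and Kdr (63.9) made up most of the mean list sum of 291 CPM in WT PDC. Over the summed libraries of a group, each of the 14 genes had reads in WT C_CD8 and in WT PDC. Tek and Sox17 had none in ITD PDC, nor Emcn in ITD C_CD8. Those without a read were 6 in WT NC_CD8, 4 in WT Esamhi (Tek, Emcn, Sox17 and Sox18) and 2 in WT Esamlo. What part endothelial RNA had in the Notch4 and Esam levels was not tested.

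The promoters of Notch3 and Notch4 are shown because these receptors had opposite patterns between the CD8+ subsets, and that of Rbpj because it held the core motif of its own protein. Promoter windows of 300 bases (250 before to 50 after the start site) came from RefSeq, build GRCm38.p6, and 7 of the 10 genes matched (8 windows). The printed stretches lie outside annotated exons and read along the strand of the gene, and capitals mark the core TGGGAA. Those of Notch3 and Notch4 end before the first exon of the gene, and that of Rbpj lies within the annotated gene, ahead of an exon with a RefSeq start site at 53590346.
Notch3 (chr17:32166891-32167140, minus strand): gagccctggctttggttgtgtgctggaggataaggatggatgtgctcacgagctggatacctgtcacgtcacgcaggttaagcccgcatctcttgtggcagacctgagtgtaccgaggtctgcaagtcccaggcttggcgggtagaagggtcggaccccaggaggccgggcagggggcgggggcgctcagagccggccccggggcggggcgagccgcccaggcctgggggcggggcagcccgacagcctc
Notch4 (chr17:34564045-34564267, plus strand): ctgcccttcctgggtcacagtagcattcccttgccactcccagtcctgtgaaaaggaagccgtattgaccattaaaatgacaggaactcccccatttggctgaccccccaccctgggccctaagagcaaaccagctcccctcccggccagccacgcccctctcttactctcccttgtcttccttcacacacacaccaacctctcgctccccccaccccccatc
Rbpj (chr5:53590096-53590213, plus strand): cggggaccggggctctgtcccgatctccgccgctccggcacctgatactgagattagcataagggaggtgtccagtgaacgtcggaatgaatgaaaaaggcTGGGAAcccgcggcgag
TGGGAA was searched on both strands (TTCCCA on the other). It occurred in 2 of the 8 windows, both of Rbpj, and in 25.6% of 32851 RefSeq windows of the same length. The Rbpj windows (start sites 53590346 and 53590486) overlap and share 1 TTCCCA match. It lies 65 bases before the first site and 205 before the second. The Notch4 window had 5 CpG pairs (observed over expected 0.214) and the Notch3 window 25 (0.706), where the median over all windows was 0.384 and Notch2 had 1.04. No motif match is a statement only about these letters in these windows.

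Notch2 (chr3:98013527-98150361, plus strand), the receptor needed for the Esam-high CD11b+ dendritic cells of the spleen, had reads in plenty in every library. It was at 105 and 116 CPM in WT PDC, 96.7, 303 and 276 in C_CD8, 197, 349 and 347 in NC_CD8, 224 and 246 in Esamhi, and 262 and 292 CPM in Esamlo. The 2 lowest values outside PDC were both from batch B. Against PDC, Notch2 was higher in C_CD8 (by 1.13 ± 0.43 on the log2 scale, adjusted p = 0.0444), NC_CD8 (1.41 ± 0.43, 0.0213) and Esamlo (1.41 ± 0.46, 0.0266). Once batch was a block the PDC-minus-other differences were -0.12 (adjusted p = 0.68), -0.51 (0.0909) and -0.19 (0.598), and none was called. Each of these calls was also lost when either WT PDC library was left out (adjusted p from 0.107 to 0.168). They were lost as well without either of the C_CD8 or NC_CD8 libraries of batches C and D (0.0534 to 0.143), and without the Esamlo library of batch D (0.123).

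Within the CD8+ subsets, Notch1, Notch2 and Notch4 were lower in batch B than in the mean of batches C and D. In WT NC_CD8, though, the batch D library had less Notch4 than the batch B library. Against the mean of batches C and D, the batch B library of the 4 CD8+ groups had a log2 difference of -0.82 to -1.58 for Notch2, -0.82 to -1.55 for Notch1 and -0.30 to -1.63 for Notch4. Notch3 was lower in batch B in 3 of these groups (-0.64 to -1.29) and higher in C_CD8 ITD (0.84), where it had 8 to 12 reads per library. Over 2100 genes with exons of 8000 bases or more, the median of this difference was -0.38 to -0.27, and over 3848 genes of 2000 bases or less it was 0.06 to 0.30. Whether transcript length accounts for these receptor values was not tested.

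Rbpj (chr5:53466152-53657362, plus strand), the factor through which all 4 receptors act, set PDC apart from all other subsets. WT PDC had 46.5 and 42.7 CPM. WT C_CD8 had 99.0, 147 and 163 CPM, NC_CD8 95.3, 124 and 112, Esamhi 113 and 109.7, and Esamlo 122 and 124. PDC stood below every other library. The differences on the log2 scale were -1.71 ± 0.18 (C_CD8), -1.28 ± 0.18 (NC_CD8), -1.39 ± 0.19 (Esamhi) and -1.54 ± 0.19 (Esamlo), with adjusted p from 6.68e-07 to 2.53e-05. The call held in each fit that left out 1 library. C_CD8 was 0.43 ± 0.15 above NC_CD8 (adjusted p = 0.0474), but this call failed in 5 of 6 such fits (0.0641 to 0.222), all but the one without the C_CD8 library of batch B. A pseudogene, Rbpj-ps3, was counted with 19708 reads against 48312 for Rbpj, and 10.6% of the 50-base words of Rbpj occur in other genes. Reads of the gene and its copy may therefore have been divided between the rows.

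The order of Hes1 over the subsets ran with some receptors and against others. Over the 10 group means, Hes1 had a Pearson r of 0.823 with Notch2 and 0.698 with Notch4. It was -0.901 with Notch1 and -0.840 with Notch3, a description of points that share libraries. Among these points are both PDC groups, which had the lowest Hes1 means (1.47 CPM in WT and 0.418 in ITD). Hes1 (chr16:30064384-30067796, plus strand), a repressor of transcription and the most general Notch target, was nearly absent from PDC: WT libraries of batches A and B had 0.449 and 2.49 CPM (10 and 47 reads). WT C_CD8 had 23.6, 52.2 and 26.4 CPM, NC_CD8 21.996, 45.2 and 21.3, Esamhi 122 and 52.7, and Esamlo 119.8 and 48.9 CPM. PDC was lower than each other subset by 4.34 to 6.00 on the log2 scale (adjusted p from 2.48e-05 to 0.00038). No other pair of WT subsets differed in Hes1 in the fit without a block (adjusted p from 0.117 to 1). With the batch block both CD11b+ subsets were above both CD8+ subsets, by 1.04 to 1.43 on the log2 scale (adjusted p from 3.29e-05 to 0.000241).

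Hes1 moved with the batch in every group outside PDC. The batch C library exceeded the batch D library of the same subset and genotype by a ratio of 1.87 to 2.45 in 8 of 8 groups, and the batch B library by 1.60 to 3.17 in 4 of 4. A list of 12 early response genes, added after seeing the data, was 1.16 to 1.48 times as high in batch C as in D over the same 8 groups. What part these genes or the batch's handling had in the Hes1 level was not tested.

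Dtx1 (chr5:120680202-120711927, minus strand), which encodes the Notch-binding ubiquitin ligase Deltex1, was highest in Esamhi. In WT it was 271 and 306 CPM in Esamhi, 39.6 and 99.7 in Esamlo, 46.8, 47.7 and 61.4 in NC_CD8, 2.54, 5.31 and 2.58 in C_CD8, and 0.989 and 0.531 CPM in PDC. Esamhi stood above all other libraries, and NC_CD8 overlapped Esamlo while staying far above C_CD8. The ratio was 13.7 between NC_CD8 and C_CD8 (log2 3.78 ± 0.39, adjusted p = 1.36e-06), 5.90 between Esamhi and NC_CD8 (log2 2.56 ± 0.37, 0.000311) and 4.09 between Esamhi and Esamlo (log2 2.03 ± 0.42, 0.0318). The last call was lost without the WT Esamhi library of batch C (adjusted p = 0.156) or D (0.311) or the WT Esamlo library of batch C (0.328), and stood at 0.0103 without the Esamlo library of batch D. With the batch block it was 2.10 (0.00254). C_CD8 was above PDC by 2.26 (SE 0.51, 0.00193). NC_CD8 and Esamlo did not differ (-0.53 ± 0.37, adjusted p = 0.533).

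Nrarp (chr2:25180758-25183339, plus strand), which encodes a small feedback inhibitor of Notch signalling, and Hey1 (chr3:8663359-8667256, minus strand), a relative of Hes1, were near the floor. Nrarp had 506 reads in all 24 libraries and Hey1 144. WT Esamlo had the most Nrarp, 5.13 and 4.47 CPM (84 and 77 reads), against 1.39 and 1.98 in Esamhi and 0.384 to 1.55 CPM in both CD8+ subsets. WT PDC had 0 and 10 reads, and the count of 0 allows up to 0.135 CPM. Nrarp was called lower in PDC than in Esamlo (adjusted p = 0.0125), but not with the batch block (0.0656) nor without the PDC library of batch A (0.0847). The highest Hey1 value was 1.45 CPM in WT Esamhi (25 reads), and 3 libraries had no Hey1 read. On these few reads Hey1 differed among the WT subsets only with the batch block (adjusted p = 0.00277). Of the 50-base words of Nrarp, 77.3% also occur in an overlapping gene model, so its reads may not all have been counted. Such a floor reflects counting alone, as reads were not tagged by molecule.

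Esam (chr9:37528078-37538319, plus strand) itself was at 69.2 and 56.4 CPM in WT Esamhi and at 4.03 and 13.7 CPM in WT Esamlo, as the sort would set it. Even so, Esam was not called between them in the edgeR fit without a block (log2 2.79, adjusted p = 0.0698). Outside the sorted pair it was 11.8, 14.6 and 14.5 CPM in WT NC_CD8, 10.1, 13.6 and 9.02 in C_CD8, and 0.0899 and 2.92 CPM in PDC. The CD8+ subsets lay close together (log2 difference -0.20 ± 0.52, adjusted p = 0.822) and overlapped Esamlo. Both were below Esamhi, C_CD8 by 2.49 (SE 0.57, adjusted p = 0.00414) and NC_CD8 by 2.29 (SE 0.57, 0.0193). The NC_CD8 call was lost in each of 5 fits that left out 1 library (0.0557 to 0.126) and stood at 0.000346 with the batch block. PDC was lower than every other subset (adjusted p from 2.57e-05 to 0.00779), although the Esamlo pair gave 0.203 without the WT Esamlo library of batch D.

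The pairs of subsets were also compared within ITD mice. Between Esamhi and Esamlo, ITD libraries had 221 and 236 against 38.9 and 59.0 CPM of Dtx1, and no values overlapped. Dtx1 was the single gene of the 10 called (log2 2.20 ± 0.43, adjusted p = 0.0257), where 0.442% of all genes were called. That call was lost when any 1 of the 4 libraries was left out (0.138 to 0.362). With the batch block 3 of the 10 passed (3.85% of all genes): Notch1 was lower in Esamhi (-1.71, adjusted p = 0.00987), and Dtx1 (2.23, 0.00256) and Esam, the sort marker (2.58, 0.00258), were higher. The Esamhi to Esamlo difference itself was not called as different between ITD and WT for any of the 10 genes, nor for any of the 18093 (edgeR with and without the block, and DESeq2: 0 called, 0% of all genes). At an unadjusted p below 0.05, 267 of all genes passed in edgeR without the block. For Dtx1 the change in that difference was 0.17 ± 0.58 on the log2 scale, for Notch2 -0.02 ± 0.63.

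Between NC_CD8 and C_CD8 of ITD mice, 4 of the 10 genes were called (27% of all genes). Notch3 was higher in NC_CD8 (log2 4.02 ± 0.67, adjusted p = 0.000201) and Notch4 lower (-4.49 ± 0.56, 1.14e-05). Dtx1 was higher (1.57 ± 0.36, 0.00322) and Hes1 lower (-2.39 ± 0.57, 0.00479). These 4 calls held in each of the 6 fits without 1 library. Hes1 had not differed between WT C_CD8 and NC_CD8 (0.34 ± 0.54, adjusted p = 0.691).

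The question of the genotype was then put within each subset. In NC_CD8, 4 of the 10 genes were lower in every ITD library than in any WT library (10.3% of all tested genes) and 1 was higher (3.43%). None of the 50 tests, 10 genes in 5 subsets, passed in the fit without a block, and 6 had an unadjusted p below 0.05. They were Notch3, Notch4, Rbpj, Hes1 and Dtx1 in NC_CD8, where 1331 of the 18093 genes had such a p, and Dtx1 in C_CD8, where 787 did. The adjusted p is over all 18093 genes, of which 0.31% were called in NC_CD8, 0.0608% in PDC, 0.0166% in C_CD8, 0.00553% in Esamlo and 0% in Esamhi. With the subset and batch pair as a block, 5 of the 10 genes passed in NC_CD8 (4.79% of all genes), and none of the 10 in the other subsets, where 0.249% (PDC), 1.23% (C_CD8), 0.0497% (Esamhi) and 0.0497% (Esamlo) of all genes did. DESeq2 without a block called 2 of the 10 in NC_CD8 (1.31% of all genes).

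Hes1 had 21.996, 45.2 and 21.3 CPM in the WT NC_CD8 libraries of batches B, C and D and 6.39, 10.2 and 5.13 CPM in their ITD partners. Each ITD library was below every WT library, and the drop within a pair was of like size in all 3 batches (log2 -1.66, -2.03 and -1.97). The log2 difference was -1.92 ± 0.57 (ratio 0.264, adjusted p = 0.254, edgeR), and with the pair block -1.90 ± 0.13 (adjusted p = 3.73e-05); DESeq2 gave an adjusted p of 0.0444. Leaving out 1 library, without a block, gave adjusted p from 0.269 to 0.82.

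Dtx1 went from 46.8, 47.7 and 61.4 CPM in WT NC_CD8 to 20.0, 19.8 and 22.01 CPM in ITD. The groups were well separated and the ITD values nearly equal. The log2 difference was -1.24 ± 0.34 (ratio 0.423, adjusted p = 0.187), and -1.23 ± 0.25 with the pair block (0.016; DESeq2 0.0429).

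Notch3 went from 13.7, 29.96 and 26.2 to 4.85, 8.15 and 15.9 CPM. The highest ITD value, in batch D, exceeded the lowest WT value, in batch B, while every pair moved the same way (block -1.26 ± 0.32, adjusted p = 0.0415; without it -1.18 ± 0.54, 0.65). Notch4 went from 8.12, 14.8 and 5.17 to 1.37, 3.23 and 4.53 CPM, with the smallest step in batch D (block -1.52 ± 0.35, 0.0274; without it -1.54 ± 0.52, 0.385). Rbpj took the other direction, from 95.3, 124 and 112 to 129, 141 and 151 CPM (block 0.45 ± 0.08, 0.0092; without it 0.45 ± 0.15, 0.385). The pseudogene row Rbpj-ps3 had a like difference (block 0.51, 0.0172).

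Esam went from 11.8, 14.6 and 14.5 to 6.79, 7.39 and 8.23 CPM in NC_CD8. The groups did not overlap, yet no fit called it (-0.77 ± 0.53, adjusted p = 0.873; block 0.142). Notch1 (-0.65 ± 0.49, adjusted p = 0.892) and Notch2 (0.15 ± 0.37, 0.996) were not called either, with or without the block. Per kilobase of exon, Notch2 made up 79.5% to 85.3% of the receptor sum in the WT NC_CD8 libraries and 91.0% to 93.7% in ITD. The shares of Notch3 and Notch4 went from 8.48% ± 0.682 to 3.61% ± 1.05 and from 3.61% ± 1.65 to 1.14% ± 0.272 (n = 3 each).

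**Figure D3:**
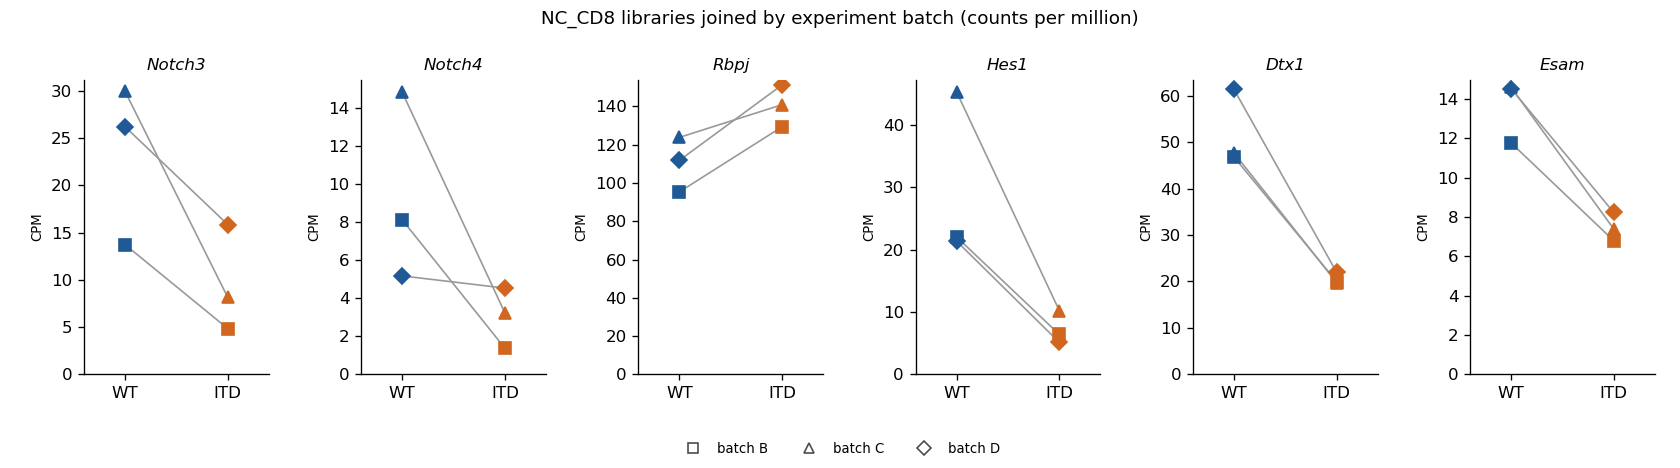
Levels in CPM of 6 genes in the 3 WT and 3 ITD NC_CD8 libraries on linear axes from 0; grey lines join the libraries of the same experiment batch. Hes1, Dtx1 and Esam are lower in each ITD library than in any WT library (Hes1 5.13 to 10.2 against 21.3 to 45.2 CPM), Rbpj is higher, and the Notch4 line of batch D is nearly flat (5.17 to 4.53 CPM).

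Genes of several marker lists moved in the same libraries. The 8 T cell genes summed to 132, 190 and 195 CPM in WT NC_CD8 and to 80.3, 71.3 and 82.7 CPM in ITD, and 4 of the 8 fell with the pair block. The 8 red pulp macrophage genes went from 45.6, 933 and 260 to 62.8, 161 and 129 CPM (3 of 8 fell), and the 9 B cell genes from 82.3, 159 and 139 to 58.8, 111 and 99.1 (2 of 9 fell). The 8 genes of the CD8+ conventional lineage went from 931, 1788 and 957 to 585, 643 and 689 CPM (5 of 8 fell), and of the 7 plasmacytoid genes 3 fell and 1 rose. Every gene of these lists had at least 1 read in NC_CD8 of each genotype, over the summed libraries of the group. The T cell sum was led by Tcf7 and Cd5 (means 90.6 and 36.1 CPM in WT, 51.5 and 17.2 in ITD). In WT Esamhi the same genes had means of 79.8 and 33.8 CPM. The red pulp macrophage list was led by Vcam1 in WT (133 CPM) and Adgre1 in ITD (37.3), and the B cell list by Cd79b (48.8 and 48.2). Of the 5 CD11b+ lineage genes 1 rose. The 14 endothelial genes summed to 138 to 169 CPM in WT and 139 to 217 CPM in ITD, and 2 fell and 1 rose of the 13 tested. In that list Pecam1 was at 102, 105 and 109 CPM in WT and 71.5, 59.3 and 72.6 in ITD, Kdr at 31.99, 35.3 and 50.8 in WT and 64.1, 92.3 and 138 in ITD, and Tek, Emcn, Robo4, Cldn5 and Sox17 had no read in either genotype. The part of all these lists in the Notch pathway values was not tested.

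In the other subsets no ITD difference of the 10 genes was called. In Esamhi, Notch3 was 0.463 and 0.495 CPM in WT and 1.02 and 1.94 in ITD, on 8 to 32 reads (log2 1.62 ± 0.86, adjusted p = 1), with no overlap. In C_CD8 no gene of the 10 had separate groups (3.49% of all genes were lower and 4.43% higher throughout). Hes1 was 23.6, 52.2 and 26.4 CPM in WT C_CD8 and 18.9, 59.8 and 32.0 in ITD (log2 0.12 ± 0.53). Dtx1 was 2.54, 5.31 and 2.58 in WT and 9.61, 4.18 and 6.58 CPM in ITD (0.97 ± 0.37, adjusted p = 0.888). In Esamlo, Hes1 was 119.8 and 48.9 CPM in WT and 68.4 and 29.8 in ITD, lower in both pairs, without a call (-0.74 ± 0.66, adjusted p = 1; block 0.082). Nrarp in Esamlo was 5.13 and 4.47 CPM in WT and 0.447 and 2.00 in ITD (-1.91 ± 1.08, adjusted p = 1; block 0.341), on 84 and 77 against 5 and 33 reads. In Esamhi, Hes1 (122 and 52.7 against 104 and 47.6 CPM) and Dtx1 (271 and 306 against 221 and 236 CPM) were lower in both pairs and not called. PDC gave 10 and 47 Hes1 reads in WT and 4 and 11 in ITD (-1.78 ± 1.03, adjusted p = 1; block 0.0896). With 2 libraries a group, 1 of the 10 genes was lower throughout in PDC (9.92% of all genes) and 0 higher (8.69%), 3 were lower (15.8%) and 2 higher (14.6%) in Esamhi, and 1 was lower (19.4%) and 3 higher (13.5%) in Esamlo.

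On average over the 5 subsets none of the 10 genes was called without a block (0.359% of all genes). With the pair block Hes1 was lower in ITD (-0.90 ± 0.09, adjusted p = 0.000213) and Rbpj higher (0.19 ± 0.04, 0.0205), where 6.83% of all genes were called. Hes1 was lower in 10 of the 12 pairs, with pair differences from -2.03 to 0.27 on the log2 scale, and the 2 pairs that went the other way were C_CD8 in batches C and D. Rbpj was higher in 10 of 12 pairs (-0.02 to 0.55). Notch2 was also higher in 10 of 12 (-0.31 to 0.41), without a call (block 0.12 ± 0.06, adjusted p = 0.315). Nrarp was lower in 10 of 12 and equal in 1, on few reads (block adjusted p = 0.168).

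Whether the ITD difference varied among the 5 subsets was tested in 1 model. No gene of the 10, and none of 18093, was called without a block, though 410 of all genes had an unadjusted p below 0.05. With the pair block Hes1 was called (adjusted p = 0.00517), where 0.304% of all genes were, and no other gene of the 10 was. DESeq2 called 54 genes (0.262%) and none of the 10. For Dtx1 the adjusted p was 0.197 with the block and 0.144 by DESeq2.

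**Figure D4:**
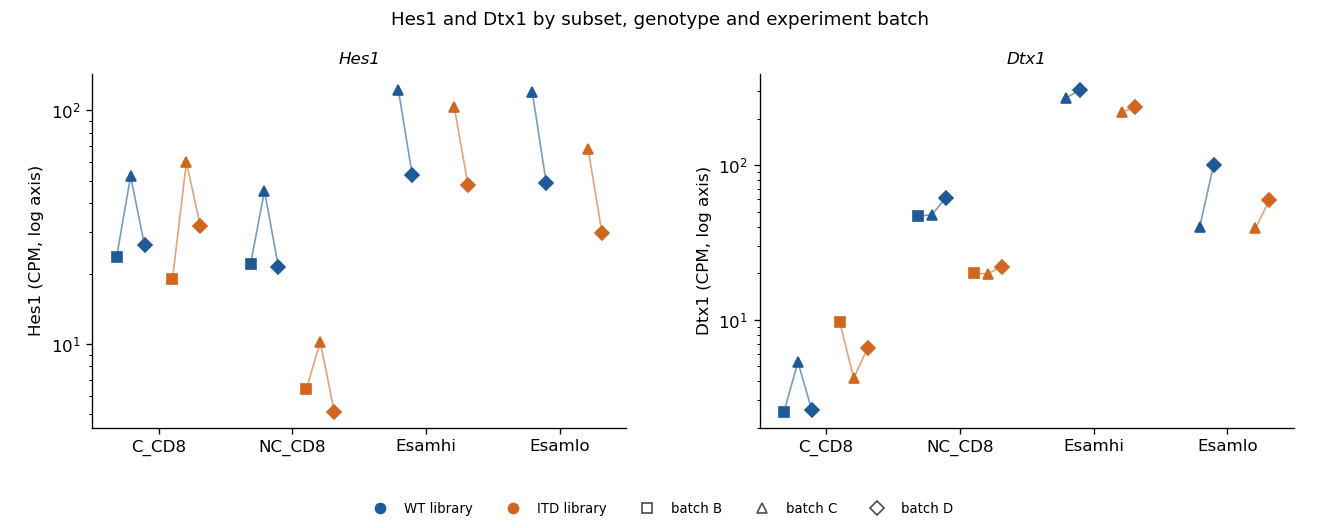
Hes1 (left) and Dtx1 (right) in CPM on log axes, for the 4 subsets other than PDC. Lines join the libraries of a group in batch order and markers show the batch. Hes1 in batch C lies above batch D in all 8 groups (ratio 1.87 to 2.45), and the ITD NC_CD8 libraries are the lowest 3 Hes1 values shown (5.13 to 10.2 CPM).

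The rest of the pathway was read from a list of 66 genes, of which 59 had enough reads to be tested. Any difference among the WT subsets was called for 32 of the 59, or 54.2%, beside 46.7% of all genes. PDC differed from C_CD8 in 27 (15 higher and 12 lower in PDC), or 45.8% beside 37.8% of all genes. It differed from NC_CD8 in 23 (39.0% beside 26.4%), from Esamhi in 28 (47.5% beside 30.6%) and from Esamlo in 29 (49.2% beside 30.2%). C_CD8 differed from NC_CD8 in 14 (23.7% beside 25%) and from Esamhi in 15 (25.4% beside 23.5%), and NC_CD8 from Esamhi in 4 (6.78% beside 6.34%). Between Esamhi and Esamlo none was called, where 0.658% of all genes were, and 4 with the batch block (6.78% beside 6.36%). Among the ligands, Dll1 was high in PDC. It had 13.8 and 25.0 CPM in WT PDC and at most 1.22 CPM in other WT libraries (log2 4.85 ± 1.04 against C_CD8, adjusted p = 0.00138). Dll4 had 182 CPM in batch A and 21.2 in batch B of WT PDC, and 24.1, 6.53 and 24.02 CPM in batches B, C and D of NC_CD8. Dll3 had no read in WT PDC. The Dll4 difference between PDC and Esamhi (log2 5.14, adjusted p = 0.00754) was lost with the batch block (1.63, 0.159).

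The Jagged ligands were divided between the subsets other than PDC. Jag1 was highest in WT Esamhi, at 35.1 and 37.2 CPM, beside 9.77 and 23.7 in Esamlo and 7.78 to 14.4 CPM in NC_CD8 (Esamhi over NC_CD8, log2 1.79 ± 0.44, adjusted p = 0.0175). Jag2 was highest in C_CD8, at 37.7, 30.1 and 31.0 CPM (over Esamhi by log2 2.73 ± 0.67, adjusted p = 0.00633). Lfng, a glycosyltransferase that alters how receptors respond to ligands, was lower in PDC than in each other subset, by at least 3.61 on the log2 scale (adjusted p from 0.000891 to 0.00145). Maml3, a coactivator that joins the Rbpj complex, was lower in C_CD8 than in NC_CD8 by 1.91 (SE 0.27, adjusted p = 4.82e-05).

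In NC_CD8, 1 of the 59 list genes was called for ITD (0.31% of all genes), the cyclin gene Ccnd1. It went from 205, 244 and 206 CPM in WT to 78.1, 99.8 and 116 in ITD (-1.07, adjusted p = 0.0496; block 0.00257). The median log2 difference over the 59 was 0.09, over the 10 Notch genes -1.07 and over all tested genes 0. With the pair block 6 of the 59 passed in NC_CD8, or 10.2% beside 4.79% of all genes: Poglut1, Ncstn, Tle1, Nedd4 and Cdkn1a were higher in ITD and Ccnd1 lower. On average over the subsets none passed without the block and 8 with it (13.6% beside 6.83% of all genes), 7 higher, among them Il2ra (1.47, adjusted p = 0.0127), and 1 lower, Ccnd1 (-0.44, 0.00658).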

How the data were processed

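RNA of sorted cells (SMART-seq v4 libraries, per the labels' protocols) was deposited by the authors as raw counts of reads per gene, the only unit used. The submitters' processing notes name bcl2fastq 1.8.4, Bowtie2, DESeq2 1.8.2 and build mm10. For the counter, the annotation and the strand setting, nothing is given in the sources used here. Without a stated strand setting, reads of overlapping genes cannot be told apart.

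Counts were tested with edgeR 4.0.16 (limma 3.58.1, R 4.3.3; quasi-likelihood test, TMM, a minimum count of 10 in filterByExpr, 10 group means) on the 18093 of 39017 genes that passed, with Benjamini-Hochberg adjustment over all of them and a threshold of 0.05. The common biological coefficient of variation was 0.317. Fits with the subset and batch pair (genotype) or the batch (subsets) as a block, DESeq2 1.42.0 without a block, DESeq2 size factors, no filter, only the groups compared, and each library left out were alternatives. The labels name the batches, and partners deviated together: every pair had a correlation over 0.1 (0.134 to 0.646). In each CD8+ subset the 3 pairs were higher than any crossed pair, and in the other subsets centring gives both pairs the same r, so they count as 1 check each. Therefore the blocked values stand beside results they change. CPM are counts over the library total. SE is of the fitted log2 difference, and n counts libraries. P-values measure the spread between these libraries, whose number of mice the labels do not give. The script was tested on simulated data.

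All 10 genes are named, with called genes of the pathway list (at most 4 per direction in a comparison) and, for each of the 10, the 3 genes most like it. The most similar genes of Notch2 and Hey1 are not reported here. Lists describe counts and medians only. Pathway genes named from the block fit were chosen after their values were seen. Members and lists were chosen with earlier results of these data known. A second deposited table of normalized values was not used.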

Additional observations from a re-analysis of the deposited data

Results flagged for a closer look

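The ITD difference of Hes1 varied among the 5 subsets when the subset and batch pair was a block (edgeR test of the difference, adjusted p = 0.00517). Hes1 was lower in ITD in all 3 NC_CD8 pairs (-1.66 to -2.03 on the log2 scale), both PDC pairs (-0.82 and -1.79, on 4 to 47 reads), both Esamlo pairs (-0.74 and -0.73) and both Esamhi pairs (-0.22 and -0.15), and the C_CD8 pairs lay between -0.30 and 0.27. Without the block, edgeR and DESeq2 each gave an adjusted p of 1 for this test.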

How the results depend on the processing

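The batch block had the widest effect. With the replicate block, 5 of the 50 tests of ITD within a subset were called in place of 0, 2 of the 10 genes on average over subsets in place of 0, 1 for a difference among subsets in place of 0, and 3 between Esamhi and Esamlo of ITD mice in place of 1. DESeq2 gave 2 for ITD within a subset and 2 for Esamhi against Esamlo in ITD, and a fit on only the groups compared gave 3 for the latter. With 1 library left out at a time, these counts were 0 to 0 within subsets and 0 to 0 for Esamhi against Esamlo in ITD, 7 to 9 for any difference among WT subsets (8 with all), 41 to 48 over the 10 WT pairs (47 with all) and 4 to 4 for NC_CD8 against C_CD8 in ITD. Where a group was left with 1 library, it was taken to vary like the others. Single genes turned direction in 5 of 455 such fits: Notch2 for ITD in NC_CD8 ranged from -0.063 to 0.33 on the log2 scale, Hey1 in WT PDC against C_CD8 from -4.33 to 0.40 and Hey1 against Esamlo from -5.41 to 0.54. None of these was called in any of those fits. The 84 values of single genes were those called by edgeR with or without the block, and all ITD tests in NC_CD8. Of these, 27 passed with the block that had not before, and 5 no longer passed. With DESeq2 6 of 84 newly passed. Values that only the block called were in the set by that choice. Outside ITD in NC_CD8, values that only DESeq2 called were not, so the 2 counts cannot be compared. Principal transcript lengths moved the Notch2 share to 64.5% in C_CD8 and 91.7% in Esamhi. Depth limited Hey1 and Nrarp, which had at most 25 and 84 reads in a library, and Hes1 in PDC.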

Other observations

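For 8 of the 10 genes, the tested genes with the most similar mean log2 CPM over the 10 groups were listed, as a description of points that share libraries. Notch1 ran closest to Rab3d (Pearson r = 0.986), Smtn and Gstp1. Notch3 ran closest to Gpr146 (0.987), Snx18 and Mei4, and Notch4 to Cyb5a (0.992), Pde1b and Snx24. Rbpj was nearest to its pseudogene Rbpj-ps3 (0.99), Tmem243 and Fam57a. Among the targets, Hes1 was nearest to Slc36a3 (0.988), Gm15523 and Rbm3, and Dtx1 to Hebp1 (0.994), Med30 and Nod1. Esam was nearest to Gm15773 (0.986), Dlgap3 and Cdcp1. Nrarp, on few reads, was nearest to S100a8 (0.964), S100a9 and Gm13684.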
